A study of Saccharomyces cerevisiae with 21 samples.

Results

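The 10 transcripts described here are those of the proteins and rRNAs that budding yeast makes from its mitochondrial DNA: COX1 (Q0045), COX2 (Q0250) and COX3 (Q0275) of cytochrome oxidase, COB (Q0105), which is cytochrome b, ATP8 (Q0080), ATP6 (Q0085) and OLI1 (Q0130) of the ATP synthase, VAR1 (Q0140), a protein of the small mitochondrial ribosomal subunit, and the rRNAs 15S_rRNA and 21S_rRNA. They were taken by identifier from a table of 7122 genes, and all 10 passed the filter on low counts that left 6164 genes for testing. The table holds RNA-seq counts of 7 strains with 3 libraries each, made to compare strains in which the Mga2 or the Ino2/Ino4 transcription programme of lipid synthesis was switched off or driven. Mga2 is a membrane-anchored factor that induces OLE1, the fatty acid desaturase gene, and Ino4 pairs with Ino2 to activate phospholipid genes.

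The strains were built in BY4741. Wild-type (WT), mga2Δ and ino4Δ cells carried no plasmid and grew in SDC+All. The strain called OLE1 was wild-type with a plasmid for Ole1 fused to mCherry. The strains called MGA2 and mga2ΔTM were mga2Δ cells with a plasmid for full-length Mga2 or for Mga2 without its transmembrane helix. The ino4Δ mga2ΔTM strain was ino4Δ with that last plasmid and an intact chromosomal MGA2. All 3 plasmids were pRS316 with the GPD promoter and an mCherry tag, and the 4 strains that carried them grew in SDC-URA. No library came from cells with an empty plasmid, so the plasmid, the medium and the expressed gene cannot be told apart in a comparison of a plasmid strain with a strain lacking one. The labels number the 3 libraries of a strain and do not say that they were separate cultures, so p-values measure the spread between these libraries, which may be technical.

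Library totals ran from 12552418 to 18372240 counts, and the 10 members took 0.256 to 0.700% of them. The engineered genes matched their labels: MGA2 was at 0.420 to 0.595 CPM (a count relative to its library total after TMM scaling, as in all levels given) in mga2Δ against 168 to 195 CPM in WT, INO4 was at 0.648 to 1.63 CPM in both ino4Δ strains against 9.07 to 12.8 CPM in WT, and OLE1 was at 8114 to 8602 CPM in the OLE1 strain against 523 to 878 CPM in WT. URA3, the plasmid marker, was above 175 CPM in all plasmid strains and at most 0.0616 CPM in the others. RNA had been depleted of rRNA, so the 15S and 21S values are what depletion left. The nuclear rDNA rows gave no measure of how far depletion went: 13 of 14 were at 0 in every library and the fourteenth, RDN5-1, reached 483 and 89 counts in 1 OLE1 and 1 ino4Δ mga2ΔTM library and at most 6 elsewhere.

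Mitochondrial DNA in yeast is transcribed by the nuclear-encoded polymerase Rpo41 with its partner Mtf1, from promoters marked by a nonanucleotide. The primary transcripts hold several genes and are then cut, spliced and trimmed, and message 3′ ends are formed at a conserved dodecamer. Nuclear-encoded activators then govern the translation of individual messages. Respiratory genes in both genomes are repressed by glucose.

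The members lie on the plus strand of the mitochondrial chromosome (MT, 85779 bases in RefSeq R64), which has 17.1% G+C. COX1 spans MT:13818-26701 with 8 exons and COB spans MT:36540-43647 with 6. The intronless genes are ATP8 at MT:27666-27812, ATP6 at MT:28487-29266, OLI1 at MT:46723-46953, VAR1 at MT:48901-50097, COX2 at MT:73758-74513 and COX3 at MT:79213-80022. The 15S rRNA lies at MT:6546-8194, and the 21S rRNA at MT:58009-62447 with 2 exons. VAR1 is the most A+T-rich member, with 10.4% G+C, and OLI1 the least, with 33.3%. Stretches of 50 bases, the read length, were checked where they lay wholly on exon bases that no other annotated gene shares. Nearly all of them occurred once in the genome (99.7% of them for 15S, all of them for the others). Exon junctions and shared exons, which hold most exonic bases of COX1 and COB, were not checked.

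The promoter nonanucleotide ATATAAGTA was searched on both strands, and the nearest copy ahead of each first gene on its own strand is printed in capitals with 10 bases either side, since the unit to which a gene belongs orders the comparisons that follow. It ended 76 bases ahead of 15S, 461 ahead of COX1, 1654 ahead of COB, 566 ahead of OLI1 and 1 base ahead of 21S.
15S rRNA, MT:6452-6480: atttattattATATAAGTAataaataata
COX1, MT:13339-13367: ataagtattgATATAAGTAatagatataa
COB, MT:34868-34896: aagaaatattATATAAGTAatatataaaa
OLI1, MT:46139-46167: atacacatttATATAAGTAtatatatata
21S rRNA, MT:57990-58018: attattatatATATAAGTAgtaaaaagta
ATP8 and ATP6 follow COX1 and VAR1 follows OLI1 in shared transcription units, while COX2 and COX3 had no copy of these letters within 8 kilobases ahead. The mitochondrial genome held 11 copies on the plus strand and 3 on the minus strand, in 4.56% of its 285 windows of 300 bases, against 0.602% of 40229 such windows of the nuclear genome. The word is almost all A and T, and the windows were not matched for base composition, so these shares do not measure enrichment. A match is a description of the sequence and not a measured start site.

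A stretch shared by the message ends was also looked for, by counting every 12-base word with more than 2 kinds of base in the 1500 bases after each of the 8 coding regions. The word found after most of them, 6 of 8, was AATAATATTCTT, which has the letters of the dodecamer and occurred 9 times in the whole mitochondrial genome. It began 69 bases after COX1, 63 after COX2, 101 after COX3, 98 after COB, 87 after ATP6 and 580 after VAR1.

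In wild-type cells the counts per kilobase differed widely between messages. Per kilobase of exon that no other annotated gene shares, the mean level was 2629 CPM for OLI1, which encodes the ring subunit of the ATP synthase, 963 for COB, 812 for COX2, 804 for COX1, 456 for COX3 and 222 for ATP6. The 21S and 15S rRNAs were at 121.5 and 112.5 CPM per kilobase, VAR1 at 7.74 and ATP8 at 4.58. The libraries of OLI1 (2387 to 2761) did not overlap those of COB (827 to 1131), whereas COB, COX2 and COX1 overlapped each other, as did 21S and 15S with each other and with ATP6, and VAR1 with ATP8. The positions of COX1 and COB depend on the counting of shared exons, since 972 of the 1605 exonic bases of COX1 and 756 of the 1158 of COB are also annotated as part of intron reading frames. Over all exonic bases COX1 and COB were at 317 and 334 CPM per kilobase, below COX3. VAR1 and ATP8, which were lowest, are also the most A+T-rich members (10.4% and 19.05% G+C), and OLI1 is the least (33.3%). How far base composition or capture set these levels was not tested, so the order need not be that of abundance.

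ATP8, which encodes a small membrane subunit of the ATP synthase, gave only 4 to 29 raw counts per library, against 1203 to 6021 for ATP6 downstream in the same unit. Its whole coding sequence of 147 bases, with 19.05% G+C, is shown because its values rest on so few reads.
ATP8, MT:27666-27812: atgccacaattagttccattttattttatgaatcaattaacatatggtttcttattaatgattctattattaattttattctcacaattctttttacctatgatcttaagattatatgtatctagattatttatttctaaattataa
VAR1 gave 130 to 409 raw counts and the other 8 members at least 1203. The spread between libraries of a strain also differed by kind of transcript. The pooled SD within strains, on the log2(CPM + 0.5) scale, was 0.13 to 0.20 for COX1, COX2, COX3, COB, OLI1 and VAR1, 0.28 for ATP6 and 0.34 for ATP8. It was 0.43 for 15S and 0.36 for 21S, against a median of 0.12 over the 5074 genes with a mean of at least 10 CPM. The rRNAs therefore needed larger differences to pass a test than the messages other than ATP8.

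**Figure D1:**
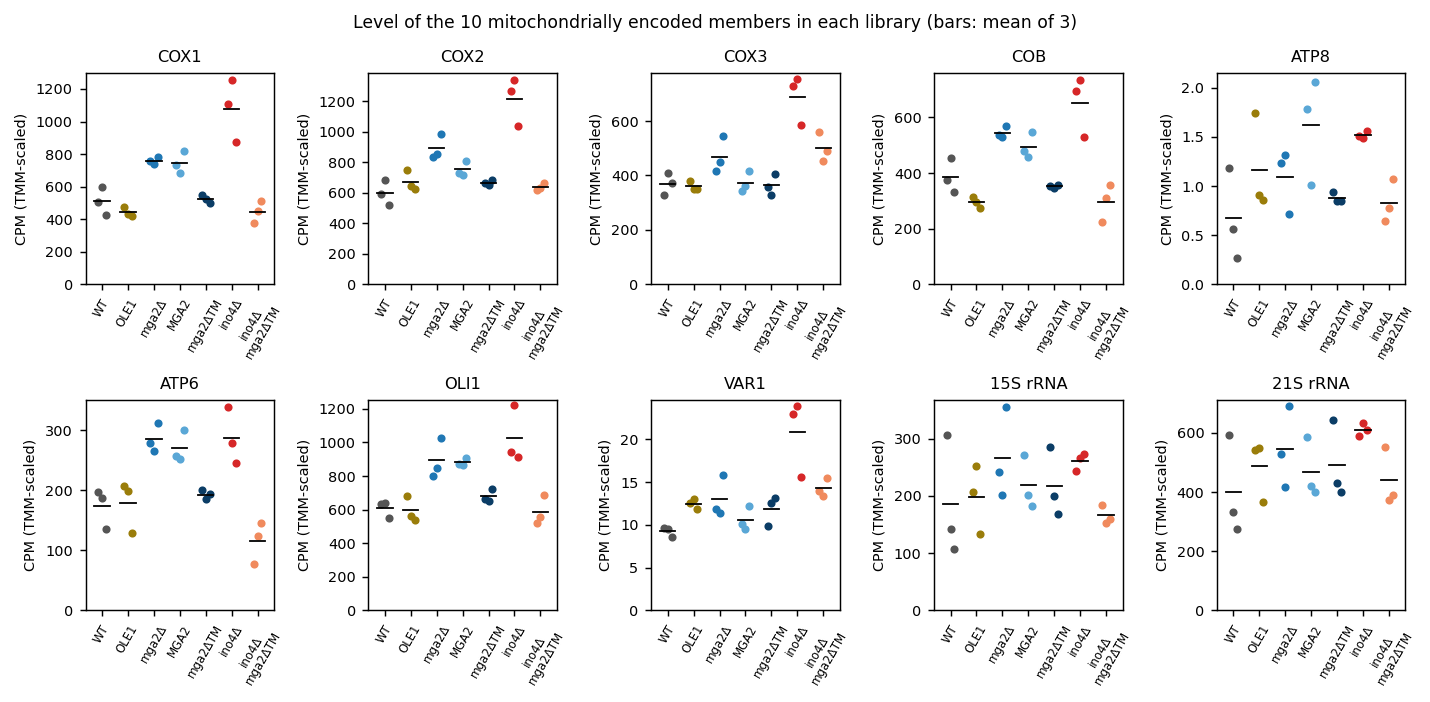
Each panel shows 1 mitochondrially encoded transcript, with the level in CPM (TMM-scaled) on a linear axis from 0, strains along the x axis, 1 point per library and a bar at the mean of 3. The ino4Δ points lie above all WT points for the 8 messages, from 872 to 1253 against 425.5 to 597 CPM for COX1, while the 15S and 21S points of these strains overlap.

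The comparison with ino4Δ held the most called members. All 8 mitochondrial messages rose in ino4Δ cells against WT, by 1.66- to 2.24-fold, and none of the 10 members fell. The sum of the 8 messages was 2343, 2638 and 2981 CPM in WT and 4203, 5102 and 5608 CPM in ino4Δ. Over all genes tested 19.2% were called higher and 10.1% lower in this comparison, where a call required a fold above 1.5 and a Benjamini-Hochberg adjusted p under 0.05 in edgeR's quasi-likelihood test over all 6164 genes. The median log2 fold change of the 10 members was 0.83 beside 0.03 over all genes tested.

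Among the cytochrome oxidase messages, COX1, the catalytic core subunit, was at 425.5, 503.5 and 597 CPM in WT and at 872, 1106 and 1253 CPM in ino4Δ. It rose by 1.08 ± 0.13 (log2 fold change ± SE, n = 3 against 3, edgeR adjusted p = 1.35e-06). COX2, the copper subunit that receives electrons from cytochrome c, was at 517.5, 593 and 685 CPM in WT and 1038, 1265 and 1343 CPM in ino4Δ. No ino4Δ library of either gene came down to the highest WT library, and COX2 rose by 1.02 ± 0.11. COX3, the third core subunit, rose by 0.90 ± 0.12, from 327 to 409 CPM in WT to 585 to 755 CPM in ino4Δ.

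COB, the only mitochondrially encoded subunit of the bc1 complex, was at 332.5, 374 and 455 CPM in WT and 530, 696 and 734 CPM in ino4Δ. It rose by 0.75 ± 0.14 with an edgeR adjusted p of 0.000208. ATP6, the proton channel subunit, rose by 0.73 ± 0.20 and OLI1 by 0.76 ± 0.12. OLI1, the message with the most counts per kilobase in WT, was at 551 to 638 CPM there against 915.5 to 1220 CPM in ino4Δ. ATP8 had the wide error that its counts bring: 1.15 ± 0.40, from 4, 8 and 19 raw counts in the WT libraries to 25, 27 and 29 after INO4 deletion. The call of ATP8 was lost without WT replicate 2 or WT replicate 3 (edgeR adjusted p = 0.0588 and 0.110), and that of ATP6 without WT replicate 3 (0.57, under the 1.5-fold limit).

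VAR1, the only ribosomal protein gene on this chromosome, was at 8.60, 9.55 and 9.63 CPM in WT and 15.6, 22.95 and 23.9 CPM in ino4Δ, and it rose by 1.17 ± 0.16 (edgeR adjusted p = 5.75e-06). The rRNAs did not pass the test. The 15S rRNA was at 107, 142 and 307 CPM in WT and 243, 265.5 and 273 CPM in ino4Δ, and 21S was at 275.5, 334 and 592 CPM in WT and 588.5, 610.0 and 634 CPM in ino4Δ. Their log2 fold changes were 0.49 ± 0.32 and 0.61 ± 0.27 with edgeR adjusted p of 0.195 and 0.0595. The call of 21S depended on the method: it was called higher with limma-voom (0.69, adjusted p = 0.0312), DESeq2 (0.59, 0.0431), library totals as the only scaling (0.83, 0.0131) and the replicate number as a block (0.68, 0.0162). WT replicate 1 held the highest value of both rRNAs in WT. Without it both were called higher in ino4Δ, 15S at 1.05 and 21S at 0.99 with edgeR adjusted p of 0.00545 and 0.004, and also in mga2Δ, at 1.09 and 0.83. The ratio of the 8 messages to the rRNAs overlapped between the strains, at 2.93 to 6.26 in WT and 4.76 to 6.23 in ino4Δ.

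Other rows of the mitochondrial genome moved in the same direction. Of 45 further rows 22 were tested, and 18 rose and 0 fell in ino4Δ, where 19.2% of all genes were called higher. AI5_BETA, an intron reading frame of COX1 that shares no exon with it, rose by 1.002 ± 0.13, and RPM1, the RNA subunit of mitochondrial RNase P, rose by 0.89 ± 0.18. Q0182 and Q0255, 2 uncharacterised reading frames, both rose by 1.21. The 24 mitochondrial tRNA rows together held only 54 to 348 counts per library. On the mga2ΔTM plasmid in ino4Δ cells 10 of the 22 fell and 1 rose, against 5.16% and 4.3% of all genes, with AI5_BETA at -1.16 ± 0.13 and RPM1 at -0.74 ± 0.18. Not all rows came back to WT in that strain. Against WT 8 of the 22 were called higher and 0 lower, where 17.9% and 9.3% of all genes were. Q0182 was among them at 1.19 ± 0.14, and the rest were tRNA rows. In mga2Δ cells 8 rose and 0 fell, against 9.52% and 2.38% of all genes. Several of the 22 rows overlap a member in the annotation, so they are not independent of it.

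**Figure D2:**
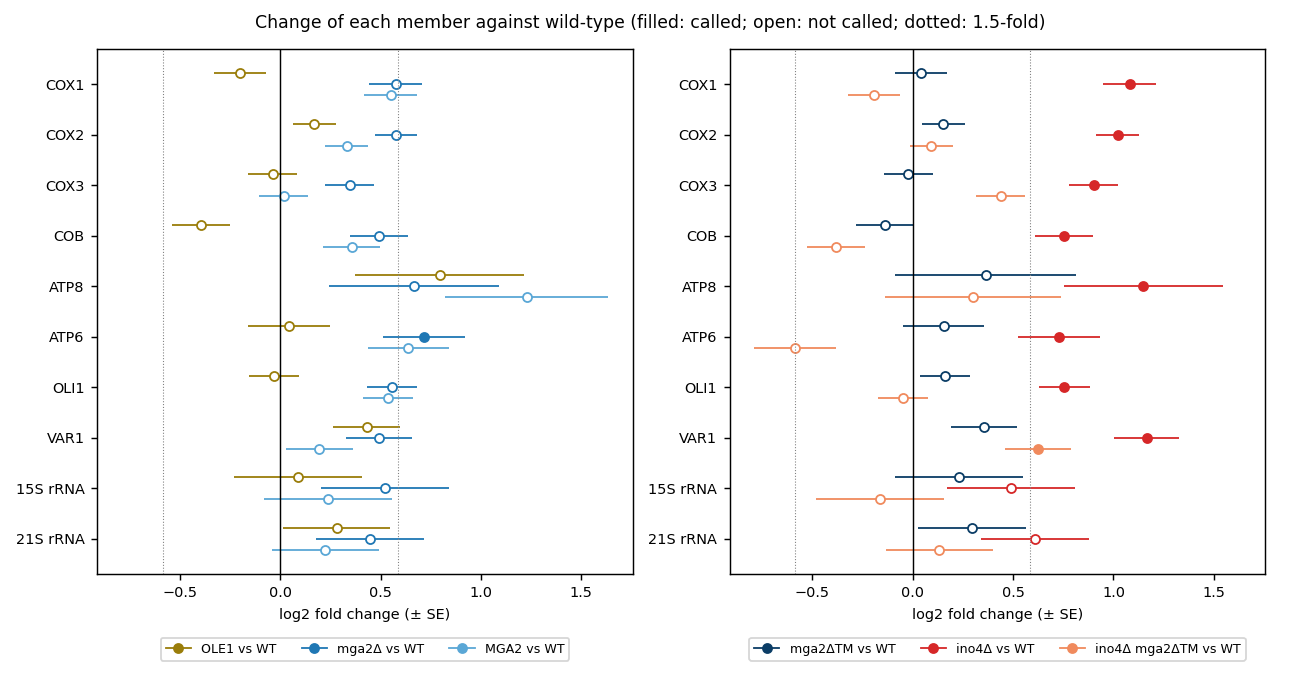
Log2 fold change of each member against WT, with bars of ± 1 SE from edgeR and 3 libraries a strain; filled points were called (over 1.5-fold, adjusted p under 0.05), open points were not, and dotted lines mark 1.5-fold. The ino4Δ estimates run from 0.49 for 15S to 1.17 for VAR1, whereas the mga2ΔTM estimates run from -0.14 for COB to 0.36 for ATP8.

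Loss of MGA2 gave positive estimates too, most of them under the limit. All 10 members were positive in mga2Δ cells against WT, and ATP6 alone was called, where 9.52% of all genes were called higher and 2.38% lower. Another 6 messages had an adjusted p under 0.05 at less than 1.5-fold. The median log2 fold change of the members was 0.54 beside 0.01 over all genes. ATP6 was at 136, 187 and 197 CPM in WT and 265, 278 and 311.5 CPM in mga2Δ, and rose by 0.72 ± 0.20 (edgeR adjusted p = 0.0102). COX1, at 737, 755 and 781 CPM in mga2Δ, lay above all WT libraries with an estimate of 0.57 ± 0.13, and COX2, at 836, 856 and 985 CPM, with 0.58 ± 0.11. COB at 530 to 568 CPM, OLI1 at 803 to 1026 CPM, COX3 at 416 to 543 CPM and VAR1 at 11.35 to 15.8 CPM also lay wholly above WT, with estimates of 0.35 to 0.56. The rRNAs overlapped WT, with 202 to 356 CPM for 15S and 418.0 to 692 CPM for 21S. Since several estimates sat next to the 1.5-fold limit, the count of called members moved with the libraries used. It was 4 without WT replicate 1, 0 without WT replicate 3, and 4 without WT replicate 2 or mga2Δ replicate 2. Without mga2Δ replicate 1 it was 3.

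The MGA2 strain held MGA2 at 3355 to 4348 CPM, far above the 168 to 195 CPM of WT, so it does not restore the wild-type level. Several messages lay above WT in every library of this strain. No member was called higher or lower against WT (3.42% and 0.552% of all genes were), with 6 of 10 at an unadjusted p under 0.05. limma-voom called 1 member and DESeq2 called 2. COX1 was at 684, 732 and 819 CPM and OLI1 at 864.5, 871 and 908 CPM, above all WT libraries, with estimates of 0.55 ± 0.13 and 0.54 ± 0.12 and edgeR adjusted p of 0.0102 and 0.00862. COX3 stood apart from them at 344.5 to 418 CPM, overlapping WT, and VAR1 and both rRNAs overlapped it as well. The count of called members was 1 without WT replicate 1 or WT replicate 2 and 2 without MGA2 replicate 2. Set directly against mga2Δ, no member was called in either direction (background 2.86% and 6.02%), with 2 at an unadjusted p under 0.05 and 0 called by limma-voom or DESeq2.

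In mga2ΔTM cells, which express a form of Mga2 that needs no release from the membrane, 8 of 10 members overlapped WT and the exceptions, OLI1 and VAR1, lay above it at 0.16 ± 0.12 and 0.36 ± 0.17. None was called in either direction, where 6.49% of all genes were called higher and 1.46% lower, and 1 had an unadjusted p under 0.05. limma-voom and DESeq2 called none. The sum of the 8 messages was 2702, 2794 and 2874 CPM, inside the WT range. The OLE1 strain was alike in count, with no member called against a background of 6.08% and 0.99%, 2 members at an unadjusted p under 0.05, and none called by limma-voom or DESeq2. There COB, at 273 to 315 CPM, lay below all WT libraries (-0.39 ± 0.14, edgeR adjusted p = 0.0606), and VAR1, at 11.9 to 12.98 CPM, lay above them (0.43 ± 0.17, edgeR adjusted p = 0.0737). Without WT replicate 1, ATP8 was called higher in the OLE1 strain (1.499, edgeR adjusted p = 0.0348).

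Set against its parent mga2Δ, mga2ΔTM had lower estimates for all 10 members. COB alone was called, against a background of 5.63% called higher and 7.27% lower, and another 5 messages had an adjusted p under 0.05 at less than 1.5-fold. COB was at 530, 536 and 568 CPM in mga2Δ and 345, 354 and 357 CPM in mga2ΔTM, and it fell by 0.63 on the log2 scale (SE 0.14, edgeR adjusted p = 0.00241). Against the MGA2 strain no member of mga2ΔTM was called (background 2.58% and 0.827%), with 5 at an unadjusted p under 0.05 and 0 called by limma-voom or DESeq2. COX1 and COB had the smallest adjusted p in that comparison, with estimates of -0.51 ± 0.13 and -0.49 ± 0.14.

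The same plasmid was also carried by ino4Δ cells. Of the 10 members 5 fell in ino4Δ mga2ΔTM against ino4Δ, where 5.16% of all genes were called lower and 4.3% higher, and the members' median was -0.83 beside -0.03 over all genes. COX1 was at 375, 451 and 509 CPM in ino4Δ mga2ΔTM and 872, 1106 and 1253 CPM in ino4Δ, so that it fell by 1.27 on the log2 scale (SE 0.13, edgeR adjusted p = 1.03e-06). ATP6 was at 76.96, 124 and 145.5 CPM against 245, 279 and 338 CPM, and fell by 1.31 (SE 0.21). COB fell by 1.14, COX2 by 0.93 and OLI1 by 0.80. Every ino4Δ mga2ΔTM library lay below every ino4Δ library for each of the 10 members, the rRNAs included, although 15S (-0.65 ± 0.32) and 21S (-0.47 ± 0.27) did not pass the test.

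Among the messages COX3 and VAR1 had the estimates nearest to 0 against ino4Δ. COX3 was at 453, 490.5 and 558.5 CPM in ino4Δ mga2ΔTM, above all WT libraries and below all ino4Δ libraries. Its estimates were -0.46 ± 0.12 against ino4Δ and 0.44 ± 0.12 against WT, both under 1.5-fold with edgeR adjusted p of 0.00800 and 0.00477. VAR1, at 13.3, 13.95 and 15.5 CPM, was the single member called against WT in this strain, where 17.9% of all genes were called higher and 9.3% lower, and it rose by 0.62 ± 0.16 (edgeR adjusted p = 0.00309). That call was lost without WT replicate 3 or without ino4Δ mga2ΔTM replicate 3 (0.58 and 0.56, under 1.5-fold). COB and ATP6 went the other way at an adjusted p under 0.05. COB overlapped WT and was at -0.38 ± 0.14 against it (edgeR adjusted p = 0.0308). ATP6, which also overlapped WT, was at -0.58 ± 0.20 with an edgeR adjusted p of 0.0207, just under the 1.5-fold limit. limma-voom and DESeq2 called it lower (-0.62 and -0.59), as did the fits with RLE size factors (-0.59) or without a count filter (-0.59), and those without WT replicate 3 (-0.73), ino4Δ mga2ΔTM replicate 2 (-0.64) or replicate 3 of that strain (-0.79). With library totals as the only scaling its estimate was -0.38, and without replicate 1 of that strain -0.36, neither of them called.

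Whether the plasmid acted differently in the 2 backgrounds was tested as an interaction. COX1 alone was called: its change on carrying the mga2ΔTM plasmid was lower in ino4Δ than in mga2Δ cells by a log2 difference of -0.74 ± 0.18 (edgeR adjusted p = 0.0214), where 1.9% of all genes were called lower and 1.4% higher. The call was lost without mga2Δ replicate 2, ino4Δ replicate 1, ino4Δ replicate 2 or mga2ΔTM replicate 1, with estimates of -0.60 to -0.72. COX2 (-0.51 ± 0.15, edgeR adjusted p = 0.0503) and ATP6 (-0.75 ± 0.29, 0.125) did not pass, and COX3 was at -0.09 ± 0.17. The backgrounds differ in chromosomal MGA2 as well as INO4, since mga2Δ cells have none and ino4Δ cells have an intact copy. The MGA2 level differed too, at 1203 to 1413 CPM in mga2ΔTM and 1653 to 2263 CPM in ino4Δ mga2ΔTM. Its part in the interaction was not tested.

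**Figure D3:**
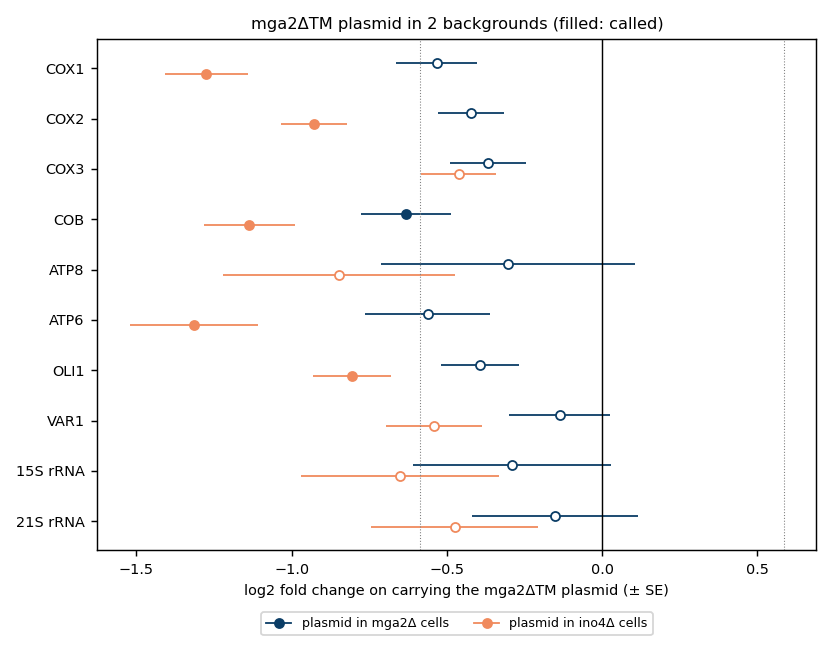
Log2 fold change of each member on carrying the mga2ΔTM plasmid, with bars of ± 1 SE, in mga2Δ cells (dark blue, mga2ΔTM against mga2Δ) and in ino4Δ cells (orange, ino4Δ mga2ΔTM against ino4Δ); filled points were called. COX1, the member called for the difference, is at -0.53 in mga2Δ and -1.27 in ino4Δ cells, and COX3 is at -0.37 and -0.46.

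Ratios within a library do not depend on the scaling between libraries and show the balance of messages. COX3 per COX1 was 0.649, 0.686 and 0.874 in WT, 0.602, 0.660 and 0.671 in ino4Δ and 0.963, 1.004 and 1.49 in ino4Δ mga2ΔTM. The last strain lay above both others in every library, 1.75-fold above ino4Δ in the mean. VAR1 per OLI1, 2 messages of 1 unit, ran from 0.0150 to 0.0156 in WT. The range in ino4Δ was 0.0170 to 0.0244, and in ino4Δ mga2ΔTM 0.02255 to 0.0269, so that neither ino4Δ strain overlapped WT. ATP6 per COX1, also of 1 unit, was lower in both: WT held 0.313 to 0.391, ino4Δ 0.223 to 0.305, and ino4Δ mga2ΔTM 0.205 to 0.286, again with no overlap with WT. In mga2Δ cells all 3 ratios overlapped WT. Each non-overlap of an ino4Δ strain given here has an exact two-sided permutation p of 0.1, the smallest that 3 against 3 allows, and 0.294 after adjustment over the 50 ratio comparisons made. Ratios of the OLE1 and MGA2 strains and shares of the 8 messages were not tested. The OLE1 strain held 0.0184 to 0.0230 for VAR1 per OLI1 and the MGA2 strain 0.471 to 0.525 for COX3 per COX1, both outside the WT range. COX2 made up 26.3% ± 0.384 (SD, n = 3) of the 8 messages in the OLE1 strain and 22.5% ± 0.447 in WT, and COX3 made up 17.1 to 23.4% in the ino4Δ mga2ΔTM libraries against 12.4 to 15.9% in WT.

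The intron reading frames of COX1, whose maturases and endonucleases assist splicing and intron mobility, give a view of unspliced RNA and freed introns. The 6 such rows together amounted to 6.38, 6.67 and 7.57 times the COX1 counts in WT and 4.85, 5.06 and 5.315 times in ino4Δ, with no overlap. In ino4Δ mga2ΔTM they amounted to 5.39, 6.48 and 6.53 times, above ino4Δ and overlapping WT. AI5_BETA, which shares no COX1 exon, overlapped between these strains, with 0.0882 to 0.107 of COX1 in WT and 0.0874 to 0.0958 in ino4Δ. For COB the 3 intron reading frames amounted to 0.260 to 0.377 of the gene in WT and 0.2295 to 0.254 in ino4Δ. Each non-overlap of these intron ratios has an exact two-sided permutation p of 0.1, and 0.294 after adjustment over the 50 ratio comparisons. How reads on exons shared by these rows and their host were assigned is not given in the sources used here, and its part in these ratios was not tested.

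**Figure D4:**
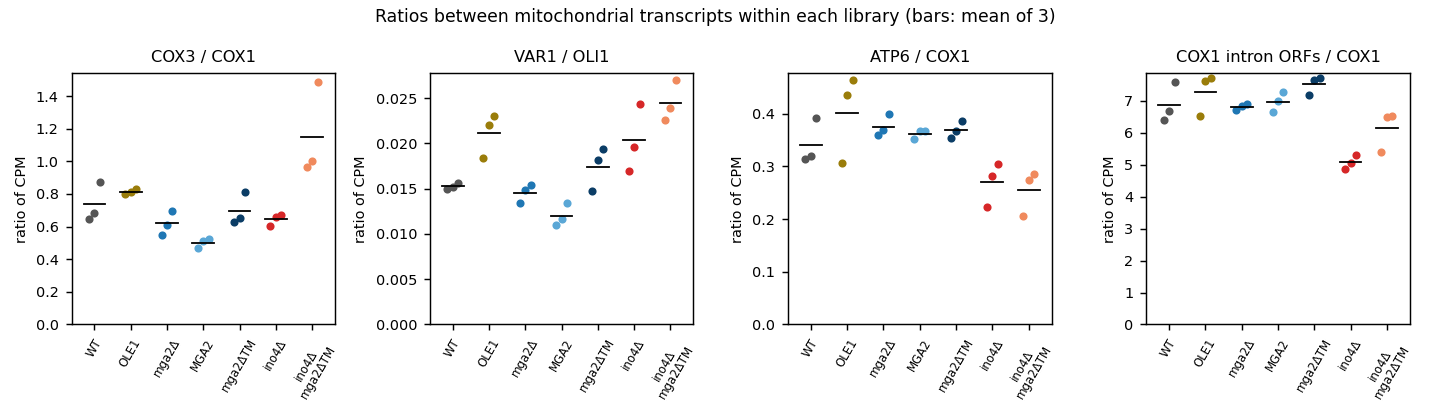
Ratio of CPM between mitochondrial transcripts within each library, on linear axes from 0, with the 3 libraries of a strain drawn from lowest to highest and a bar at their mean; intron ORFs are the 6 intron reading frames of COX1. COX3 per COX1 is highest in ino4Δ mga2ΔTM (0.963 to 1.49), and the intron reading frames per COX1 are lowest in ino4Δ (4.85 to 5.315).

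Nuclear-encoded partners of these proteins are read against the shares of all genes called, 19.2% higher and 10.1% lower in ino4Δ, and 4.3% higher and 5.16% lower on the mga2ΔTM plasmid in ino4Δ cells. Of 9 nuclear bc1 subunits 3 rose in ino4Δ and 0 fell, QCR8 by 0.75 ± 0.13, QCR9 by 0.69 ± 0.14 and QCR10 by 0.59 ± 0.15, with a list median of 0.55. On the mga2ΔTM plasmid in ino4Δ cells 7 of 9 fell and 0 rose, among them COR1 (-0.71 ± 0.07), CYT1, the cytochrome c1 gene (-0.82 ± 0.14), and QCR8 (-0.70 ± 0.13). Of 10 nuclear cytochrome oxidase subunits 1 rose in ino4Δ, a share under that of all genes, COX26 (2.10 ± 0.47), and 4 fell on the plasmid, with COX8 at -0.69, COX4 at -0.75 and COX6 at -0.69. Of 14 nuclear ATP synthase subunits 2 rose in ino4Δ, also a smaller share than over all genes, ATP14 (0.59 ± 0.09) and TIM11 (0.66 ± 0.19), and none was called on the plasmid, with 9 of 14 at an unadjusted p under 0.05. DESeq2 called 2 of the 9 bc1 and 1 of the 14 ATP synthase subunits higher in ino4Δ. A rise of partners was not particular to ino4Δ. In the MGA2 strain against WT 3 of 9 bc1 and 2 of 10 oxidase subunits rose and 0 fell, where 3.42% and 0.552% of all genes did. None of the 14 ATP synthase subunits was called there.

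Few genes of the machinery that makes and reads mitochondrial RNA were called. None of 10 genes of mitochondrial DNA maintenance and transcription, RPO41 and MTF1 among them, was called in ino4Δ by edgeR, limma-voom or DESeq2 (5 had an unadjusted p under 0.05), and their median was -0.19. Of 66 mitochondrial ribosomal protein genes 0 were called by the same tools (23 at an unadjusted p under 0.05, median -0.08). None of 18 RNA processing and turnover genes was called in ino4Δ, with 11 at an unadjusted p under 0.05. On the plasmid in ino4Δ cells 1 of the 18 rose and 1 fell, near the 4.3% and 5.16% of all genes. MSS18, a splicing factor for a COX1 intron, rose by 0.70 ± 0.10. RPM2, the protein subunit of mitochondrial RNase P, fell by 0.59, just over the 1.5-fold limit, and DESeq2 called 0 of the list lower. MSS18 was not particular to ino4Δ cells, since it was also called higher in mga2ΔTM against WT (1.06 ± 0.10), mga2Δ (0.81 ± 0.10) and MGA2 (0.75 ± 0.10). Among 14 translational activators 2 rose in ino4Δ, a smaller share than the 19.2% of all genes: PET122 by 0.69 ± 0.11 and ATP22 by 0.62 ± 0.10. None of the 5 genes for the Hap2/3/4/5 complex and Hap1, activators of respiratory genes, was called in ino4Δ by the 3 tools (3 at an unadjusted p under 0.05, median 0.06).

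A list of 11 genes of the retrograde response, by which cells adjust nuclear metabolism to the state of mitochondria, had members called in the opposite direction. In ino4Δ 5 fell and 0 rose, where 10.1% of all genes were called lower, among them ACO1 (-1.12 ± 0.09), DLD3 (-1.03 ± 0.09) and IDH2 (-0.83 ± 0.09). On the plasmid in ino4Δ cells 6 rose and 0 fell, where 4.3% of all genes were called higher, with DLD3 at 1.24 ± 0.09, IDH1 at 1.07 ± 0.11 and IDH2 at 0.85 ± 0.09. These comparisons share the ino4Δ libraries, so their opposite signs are not separate evidence. A rise on the plasmid was not particular to ino4Δ cells. In mga2ΔTM against mga2Δ 6 of the 11 also rose and 0 fell, where 5.63% of all genes were called higher. ACO1 was at 1.03 ± 0.09 there, IDH1 at 0.86 ± 0.11 and IDH2 at 0.75 ± 0.09. In mga2Δ against WT 1 rose and 2 fell, where 9.52% and 2.38% of all genes did.

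Over the 21 libraries the messages rose and fell together to different degrees. Pearson's r between pairs of messages, on log2(CPM + 0.5), ran from 0.20 (COX3 with ATP8) to 0.97 (COX1 with COB), and it was 0.94 between 15S and 21S. COX3 and VAR1 were most like each other (0.86), COX3 and ATP6 reached only 0.21, and the summed messages and summed rRNAs had an r of 0.50. The libraries share strains and are not independent, so these are descriptions without a test. Among 5053 nuclear genes with a mean of at least 10 CPM, those most like the summed messages were QCR8 (r = 0.85), MDM32, an inner membrane protein of mitochondrial shape (0.85), NDI1, the internal NADH dehydrogenase (0.85), MPC1, a subunit of the pyruvate carrier (0.84), and SDH1, the flavoprotein of succinate dehydrogenase (0.84). NDI1 averaged 60.1 CPM in WT, 86.9 in mga2Δ, 84.97 in MGA2, 92.2 in ino4Δ and 59.4 in ino4Δ mga2ΔTM. The most opposed were LAC1, a ceramide synthase gene (-0.89), DLD3 (-0.88) and IDH2 (-0.86). LAC1 averaged 134 CPM in WT, 74.8 in ino4Δ and 138 in ino4Δ mga2ΔTM. Within strains, after each strain's mean was removed, r with the summed messages was 0.19 for QCR8, 0.50 for NDI1 and -0.21 for LAC1, so much of the likeness was between strains.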

How the data were processed

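The authors depleted rRNA, sequenced 50-base single-end reads, aligned them with STAR 2.5.1b to Ensembl R64-1-1 and made gene counts with HTSeq 0.5.4p3. The raw counts they deposited were used here. The counting mode and strand setting are not given in the sources used here. A second deposited table of normalized values was not used. 4 lines naming no gene were left out. Counts were filtered (filterByExpr, minimum count 10, minimum total 15), scaled by TMM and tested with edgeR 4.0.16 (robust quasi-likelihood, 1 mean per strain, 21 libraries) under R 4.3.3. A call needed a fold above 1.5 and adjusted p under 0.05. The scripts were tested on simulated data. Alternatives used limma 3.58.1, DESeq2 1.42.0, other scalings, filters and libraries. No 2 libraries of a strain agreed within counting noise (chi-square per gene 6.98 to 52.0 over 21 pairs). Symbols, positions and sequences came from RefSeq R64, whose table named 6045 genes. The members, gene lists and tests were chosen with earlier results of these data known. All 10 members were described, up to 3 called genes a list were named by adjusted p, and the 5 most and 3 least correlated nuclear genes. QCR8, IDH2 and DLD3 were named by both. Rows other than these, and single rows of the mitochondrial genome, were chosen after their values were seen.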

Additional observations from a re-analysis of the deposited data

Results flagged for a closer look

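The change of COX1 on carrying the mga2ΔTM plasmid differed between the 2 backgrounds by the test of the difference itself. It was -1.27 ± 0.13 in ino4Δ and -0.53 ± 0.13 in mga2Δ cells on the log2 scale, a difference of -0.74 ± 0.18 (edgeR adjusted p = 0.0214), with all 3 plasmid libraries below all 3 libraries without the plasmid in each background. Over the alternatives that left out no library the adjusted p ran from 0.00452 to 0.0284, and over those that left out 1 library from 0.00884 to 0.0764. The plasmid strains of these backgrounds also differed in MGA2 level, and the part of that was not tested.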

How the results depend on the processing

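Of 1490 member estimates under alternatives, 1437 kept their side of the threshold, 43 passed it where the reported one did not, 10 no longer passed it and 0 reversed. Library totals alone moved the median of all genes up by 0.22 in ino4Δ and 0.21 in ino4Δ mga2ΔTM against WT, with 1682 genes higher and 258 lower in ino4Δ in place of 1185 and 620 (in ino4Δ mga2ΔTM 1549 and 309 in place of 1105 and 573). In ino4Δ the count of called members was 8 and became 9 with limma-voom, DESeq2 or library totals, 21S being the addition. In mga2Δ it was 1 and became 2 with limma-voom, 6 with library totals and 7 without a fold minimum. In MGA2 against WT it was 0 and became 1 with limma-voom, 2 with DESeq2, 2 with library totals and 2 without a fold minimum. In ino4Δ mga2ΔTM against WT it was 1 (VAR1, higher) and became 2 with limma-voom, DESeq2, RLE size factors or no filter, 1 higher and 1 lower (ATP6), 2 with library totals, both higher, and 4 without a fold minimum, 2 in each direction. Without a fold minimum it was 1 in MGA2 against mga2Δ, 6 in mga2ΔTM against mga2Δ and 2 in mga2ΔTM against MGA2. Leaving out 1 library at a time, counts ran from 0 to 1 in OLE1, 0 to 4 in mga2Δ, 0 to 2 in MGA2, 6 to 10 in ino4Δ, 1 to 2 in ino4Δ mga2ΔTM against WT (without WT replicate 3 or replicate 3 of that strain the 1 was ATP6, lower, in place of VAR1), 5 to 6 in ino4Δ mga2ΔTM against ino4Δ and 0 to 1 for the interaction. The cause of these changes was not tested.

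Over all genes tested replicate numbers did not pair the libraries: deviations of same-numbered libraries correlated at 0.018 on average (63 pairs, -0.35 to 0.45), and others at -0.010. That average does not describe the rRNAs. Both were highest in replicate 1 of WT, MGA2, mga2ΔTM and ino4Δ mga2ΔTM, and in another library of OLE1, mga2Δ and ino4Δ. Whether the number marks a shared batch was not tested. With the replicate number as a block 9 members were called in ino4Δ in place of 8, 21S being the addition, and every other count was as reported (0 in OLE1, 1 in mga2Δ, 0 in MGA2, 0 in mga2ΔTM and 1 in ino4Δ mga2ΔTM against WT, 0 and 1 for MGA2 and mga2ΔTM against mga2Δ, 0 for mga2ΔTM against MGA2, 5 against ino4Δ and 1 for the interaction). Low counts limit ATP8, and library spread limits the rRNAs.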
